A study of Mus musculus with 2 samples.

Results

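The cortical capillary endothelial barcodes of the mouse kidney were 280 of 2350 barcodes kept from 2 single-cell RNA libraries. The cisplatin library held 70 of them and the saline library 210. A barcode stands for 1 droplet and, where the droplet worked, for 1 cell. A barcode was kept with at least 500 unique molecular identifiers (UMIs, each counting 1 captured RNA molecule), at least 250 genes and at most 20% of its UMIs from mitochondrial genes. It was called endothelial with at least 1 UMI of Pecam1, Cdh5, Egfl7 or Flt1. It became a member when the summed UMIs of Btnl9, Aplnr, Fabp4, Esm1 and Npr3 were at least 2 and exceeded each of 4 other sums, for glomerular, arterial, large-vessel and Inhbb and Igfbp3 capillary endothelium.

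The cisplatin library came from male C57BL6/J mice given cisplatin at 20 mg/kg, and the saline library from male C57BL6/J mice given saline. Kidneys were taken at 72 h, the mice were 10 to 12 weeks old, and the design gives 10 kidneys for each condition and names 5 mice, read here as 5 in each. Cisplatin is a platinum anticancer drug that binds DNA and injures the renal tubule, and the series asks how endothelial cells of the kidney respond to that injury. Digested kidneys were enriched with beads for CD31 and then for podoplanin, which was meant to leave lymphatic endothelial cells, and were sequenced with a Chromium droplet kit that reads the 3′ ends of transcripts. With 1 library per treatment, treatment and library cannot be told apart and no test was possible. Each range in brackets is a 95% exact interval that covers counting error only.

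Peritubular capillaries run between the tubules of the renal cortex, and their fenestrated endothelium takes back the water and solutes that the tubule reabsorbs. The fenestrae are closed by diaphragms built from Plvap, and vascular endothelial growth factor from the tubule, received by Kdr, keeps these vessels in place. The same endothelium takes up fatty acids from blood, for which it carries lipoprotein lipase anchors, Cd36 and the fatty acid binding proteins Fabp4 and Fabp5. DNA damage from platinum activates the transcription factor p53 in many cells, and metal ions activate the transcription factor Mtf1, which switches on the metallothionein genes.

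The metallothioneins Mt1 and Mt2, small proteins that bind zinc, copper and other heavy metals, had the widest differences among genes that mark no other cell type, ranked by the interval bound nearest 1. Their promoters are shown because Mtf1 binds a short motif in front of them, the metal response element. The windows run from 250 bases before to 50 bases after the transcription start, on the plus strand of GRCm38.p6, as given by RefSeq. Capitals mark TGCACNC or TGCGCNC on either strand, so that GNGTGCA and GNGCGCA are the same letters read on the other strand.
Mt1, chr8:94178839-94179138: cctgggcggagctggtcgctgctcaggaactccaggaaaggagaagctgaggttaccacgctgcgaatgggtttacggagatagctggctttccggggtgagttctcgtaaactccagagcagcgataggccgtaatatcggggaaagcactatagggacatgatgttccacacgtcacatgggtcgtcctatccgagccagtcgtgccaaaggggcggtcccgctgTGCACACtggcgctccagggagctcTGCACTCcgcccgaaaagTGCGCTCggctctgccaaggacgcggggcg
Mt2, chr8:94172368-94172667: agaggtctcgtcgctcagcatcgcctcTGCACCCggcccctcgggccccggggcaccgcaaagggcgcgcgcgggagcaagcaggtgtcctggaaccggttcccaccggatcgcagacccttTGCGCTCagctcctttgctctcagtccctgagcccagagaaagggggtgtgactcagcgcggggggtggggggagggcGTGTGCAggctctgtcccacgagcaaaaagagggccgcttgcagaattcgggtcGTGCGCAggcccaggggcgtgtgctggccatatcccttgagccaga
The Mt1 window held 3 matches and the Mt2 window 4. In both windows the last marked stretch lies after the RefSeq start that sets the window, and in the Mt1 window the middle one does too. Other transcription starts of these genes were not examined. Of 32851 windows of the same length, 25.7% held at least 1 match, 1.97% at least 3 and 0.517% at least 4. A match is a description of the letters and not of binding.

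Mt1 had 403 UMIs in the cisplatin members and 2 in the saline members, or 998 and 7.32 counts per 1000000 of the members' UMIs (CPM), a ratio of 136 (37.5 to 1130). Mt2 had 128 UMIs in the cisplatin members and 1 in the saline members, or 317 and 3.66 CPM, a ratio of 86.6 (15.3 to 3447). Both genes were thus close to absent in the saline members and plentiful in the cisplatin members. Mt1 was seen in 30 of 70 cisplatin members and in 2 of 210 saline members, and in 18.6% and 0.476% of them after each barcode was thinned to 500 UMIs. A single cisplatin barcode carried 30.0% of the Mt1 UMIs, and without it the ratio was 99.6. Levels outside the members moved the same way: Mt1 stood at 1154 CPM in the other 4 classes of the cisplatin library and 31.4 CPM in those of the saline library. The pool of these 4 classes differed in mix between the libraries. In the cisplatin library the glomerular class gave 331305 of its 662848 UMIs. In the saline library the large-vessel class gave 451650 of its 572742 UMIs. Levels of the pool, here and below, can differ between libraries by that mix, a part that was not tested. Barcodes of 1 to 100 UMIs, which carry free RNA, held Mt1 at 734 CPM in the cisplatin library and 48.6 CPM in the saline library, and Mt2 at 261 and 7.02 CPM. The part of free RNA in the members' metallothionein level was not tested.

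**Figure D1:**
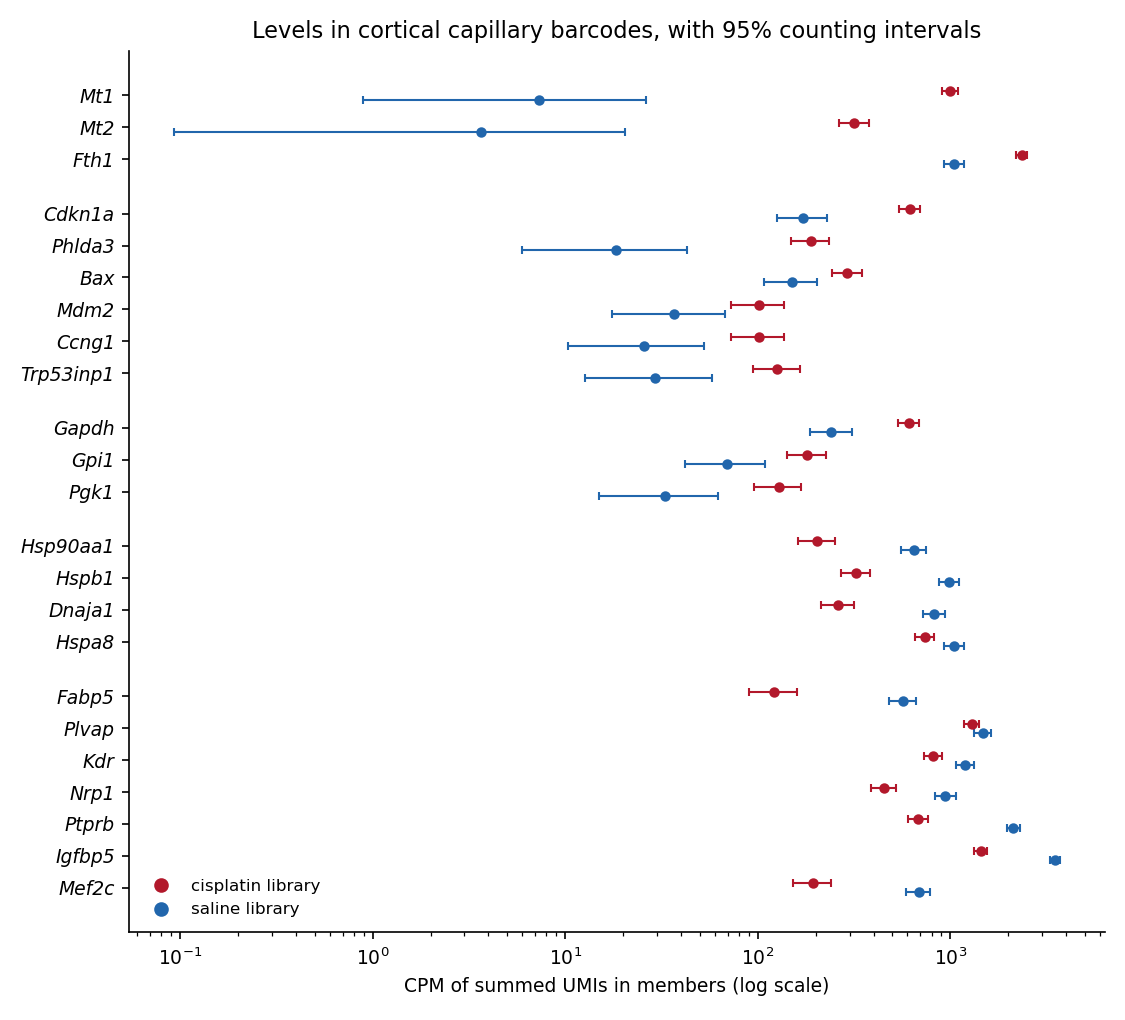
CPM of 23 genes in the cortical capillary members of the cisplatin library and of the saline library, on a log axis, with exact Poisson 95% intervals for counting error. Mt1, Mt2, Fth1, the p53 targets and the glycolysis enzymes stand higher in the cisplatin members, and the chaperones, Fabp5, Ptprb, Igfbp5 and Mef2c stand higher in the saline members.

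The cisplatin members were deeper than the saline members, and this runs through all values. The cisplatin members held 403675 UMIs with a median of 2554.5 per barcode (500 to 49904), and the saline members 273133 UMIs with a median of 881 (505 to 11485). The median number of genes was 1331 in the cisplatin members and 596 in the saline members. Mitochondrial genes made up a median of 7.29% of a cisplatin member and 1.04% of a saline member. Malat1, a nuclear non-coding RNA, made up a median of 1.92% of a cisplatin member and 8.01% of a saline member. The 4 deepest barcodes carried 37.0% of the cisplatin members' UMIs and 12.4% of the saline members' UMIs. Other readings are therefore given beside the pooled ratios: equal weight, in which each barcode's share of a gene is averaged, the value without the cisplatin barcode richest in the gene, and members under 2000 UMIs, which were 32 with 32120 UMIs in the cisplatin library and 189 with 173173 UMIs in the saline library. The part of depth in the gene differences was not tested.

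**Figure D2:**
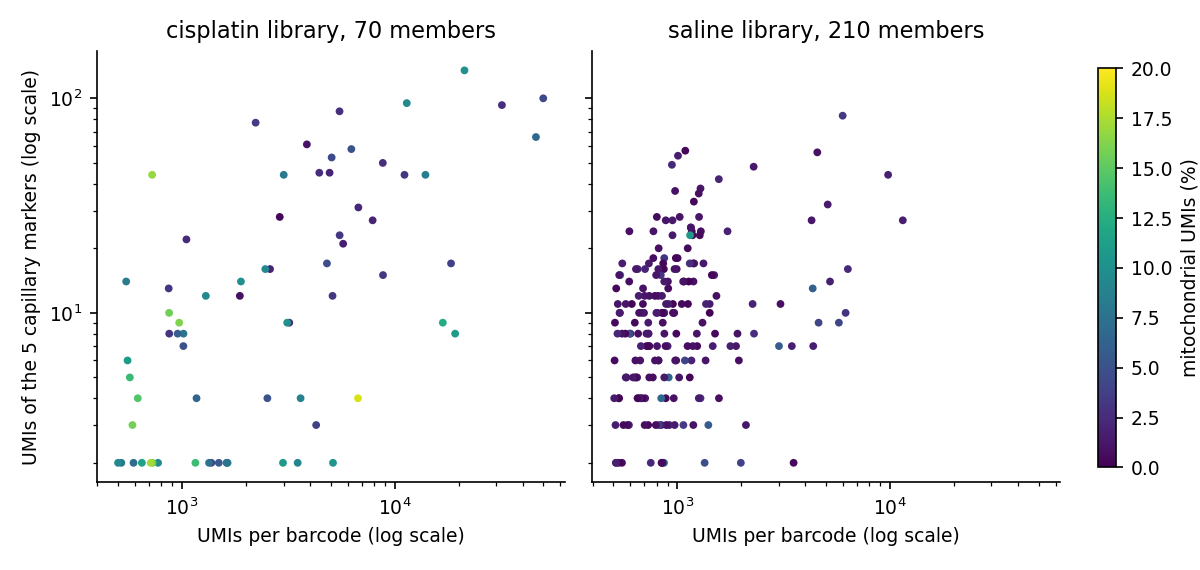
UMIs per barcode against the summed UMIs of the 5 capillary markers, both on log axes, for the 70 cisplatin members and the 210 saline members, coloured by the percent of mitochondrial UMIs. The cisplatin members reach 49904 UMIs and the saline members 11485, while the marker sums span 2 to 135 and 2 to 83.

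The values that chose the members are a description. The marker sum had a median of 9.5 (2 to 135) in the cisplatin members and 10.0 (2 to 83) in the saline members. Just inside the threshold, at a sum of exactly 2, lay 17 cisplatin members and 12 saline members. Just outside it, at a sum of 1 with the other 4 sums at 0, lay 42 cisplatin barcodes and 23 saline barcodes. Fabp4, the fatty acid carrier on chromosome 3 (10204088 to 10208576, minus strand, GRCm38), carried most of the sum: 1321 UMIs in the cisplatin members and 2207 in the saline members, or 3272 and 8080 CPM. It was the only marker seen in 29 cisplatin members and in 95 saline members. Esm1, a secreted proteoglycan of endothelium under growth factor signalling, had 189 UMIs in the cisplatin members and 177 in the saline members. Npr3, the clearance receptor for natriuretic peptides, had 54 and 82, the butyrophilin-like gene Btnl9 had 38 and 127, and Aplnr, the apelin receptor, had 5 and 25, in each pair the cisplatin members first. At least 2 of the 5 markers were present in 39 cisplatin members (55.7%) and in 113 saline members (53.8%).

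The labels call the sorted cells lymphatic, and the members' markers went against that. Of 6 lymphatic markers, Prox1, Lyve1, Mmrn1, Ccl21a and Reln were at 0 in the cisplatin members and Lyve1, Mmrn1, Ccl21a and Reln in the saline members, with 11 and 2 lymphatic UMIs in all. The endothelial genes of the rule, of which each member needed 1 UMI in all, were broadly present: the adhesion receptor Pecam1 had 577 CPM in the cisplatin members and 882 CPM in the saline members, the cadherin Cdh5 540 and 923 CPM, the matrix protein Egfl7 1035 and 1069 CPM and the receptor Flt1 1209 and 1666 CPM.

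Markers of other cells were more frequent in the cisplatin members. Proximal tubule markers had 1260 UMIs in the cisplatin members and 467 in the saline members over 15 genes, of which 0 and 1 were at 0. As a median share of a barcode they made up 0.235% of the cisplatin members and 0.168% of the saline members. Collecting duct markers had 819 UMIs in the cisplatin members, 779 of them in 1 barcode of 46109 UMIs, and 3 in the saline members, where Aqp3, Hsd11b2, Scnn1b and Scnn1g were at 0. Vasa recta markers had 263 UMIs in the cisplatin members, 247 of them in 1 barcode, and 9 in the saline members, and loop of Henle markers 253, with 162 in 1 barcode, and 25. Injured tubule markers had 930 UMIs in the cisplatin members, 456 of them in 1 barcode and with Havcr1 and Krt20 at 0, and all 4 were at 0 in the saline members. Podocyte markers had 290 UMIs in the cisplatin members, 184 of them in 1 barcode, and 83 in the saline members. Macrophage markers had 52 and 9 UMIs, fibroblast markers 43 and 4, pericyte and smooth muscle markers 26 and 5 and B cell markers 0 and 0, in each pair the cisplatin members first. At least 1 UMI of the 4 other endothelial sums was present in 53 of 70 cisplatin members and in 128 of 210 saline members. Scrublet marked 2 of 1725 cisplatin barcodes and 1 of 625 saline barcodes as doublets, too few for the caller to have worked, and none of these was a member. The 2 libraries shared 0 kept barcodes.

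Cortical capillary members were a smaller share of the endothelial barcodes in the cisplatin library. They were 11.5% (9.09 to 14.3) of 608 endothelial barcodes in the cisplatin library and 42.3% (37.9 to 46.8) of 496 in the saline library. Most of the remainder in the cisplatin library had no class, 468 barcodes against 142 in the saline library. Of these barcodes without a class, 70.3% in the cisplatin library and 37.3% in the saline library had exactly 1 UMI of the 4 endothelial genes, against 10.0% of cisplatin members and 6.67% of saline members. Over barcodes that had a class, the members were 50% (41.4 to 58.6) of 140 in the cisplatin library and 59.3% (54.0 to 64.5) of 354 in the saline library, so the gap between libraries was narrower with this denominator. The bead enrichment, the UMI minimum and the depth gap can each set such a share, and their part was not tested. Fewer cells of a type and less RNA per cell cannot be told apart here.

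Beside the other 4 endothelial classes of the same library pooled, the members had higher levels of several interferon-induced and class II genes. Of 4274 genes compared, 40 (0.936%) were at least 2-fold higher in the members in both libraries and 8 (0.187%) at least 2-fold lower in both, given as a description since the members were chosen on these barcodes. Rsad2, an antiviral enzyme also called viperin, had 738 CPM in the members and 198 CPM in the other classes of the cisplatin library, a ratio of 3.74 (3.03 to 4.62). It had 1347 CPM in the members and 356 CPM in the other classes of the saline library, a ratio of 3.78 (3.18 to 4.51). By class, Rsad2 came next in the Inhbb and Igfbp3 capillary class, with 395 CPM in the cisplatin library and 883 CPM in the saline library, and then in the large-vessel class, with 377 and 388 CPM. The glomerular class had 72.4 CPM in the cisplatin library and 187 CPM in the saline library, on 24 and 3 UMIs. Ifi44 had a ratio of 3.13 (2.22 to 4.45) in the cisplatin library and 6.79 (4.77 to 9.84) in the saline library, and Cmpk2, a mitochondrial nucleotide kinase, 3.13 (1.83 to 5.51) and 3.62 (2.24 to 5.93). Of 28 interferon-induced genes compared, Ifi44, Isg15, Irf1, Rsad2, Ifit1, Ifit2 and Ifit3 were at least 2-fold higher in the members in both libraries, 7 in all. The list's median log2 ratio was 0.68 in the cisplatin library and 0.84 in the saline library, beside −0.06 and 0.06 over all genes compared.

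Class II genes were likewise higher in the members than in the other classes pooled. Cd74, the chaperone of class II molecules, had 168.5 CPM in the members and 57.3 CPM in the other classes of the cisplatin library, and 208.7 and 38.4 CPM in those of the saline library. H2-Aa had a ratio of 4.38 (1.96 to 10.7) in the cisplatin library and 12.1 (4.12 to 48.0) in the saline library, and H2-Ab1 3.83 (2.16 to 7.07) and 4.30 (2.43 to 7.89). These 3 of 4 measured class II genes were at least 2-fold higher in the members in both libraries, and macrophage markers, whose cells also carry class II, had 52 UMIs in the cisplatin members and 9 in the saline members. Single classes came close for Cd74, with 154.5 CPM in the Inhbb and Igfbp3 capillary class of the cisplatin library and 200.7 CPM in the arterial class of the saline library. The cisplatin barcodes without a class had 339 CPM of Cd74, above the members. A single barcode gave 34 of the 68 Cd74 UMIs of the cisplatin members.

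Among 9 genes of fenestrae and caveolae, Plvap was the single one at least 2-fold higher in both libraries, and the list's median log2 ratio over the other classes was −0.33 in the cisplatin library and −0.14 in the saline library. Plvap, the diaphragm protein, had 1291 CPM in the members and 531 CPM in the other classes of the cisplatin library, a ratio of 2.43 (2.12 to 2.79), and 1472 and 289.8 CPM in those of the saline library, a ratio of 5.08 (4.23 to 6.12). The Inhbb and Igfbp3 capillary class had more Plvap than the members, 1491 CPM in the cisplatin library and 2158 CPM in the saline library. The glomerular class, whose mature fenestrae lack diaphragms, had 21.1 CPM (7 UMIs) in the cisplatin library and 0 in the saline library. Apoe, a lipid carrier, had 547.5 CPM in the members and 167.5 CPM in the other classes of the cisplatin library, and 483.3 and 71.6 CPM in those of the saline library. Kdr was higher in the glomerular class, with 2134 CPM in the cisplatin library and 2747 CPM in the saline library, than in the members, with 813 and 1197 CPM.

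**Figure D3:**
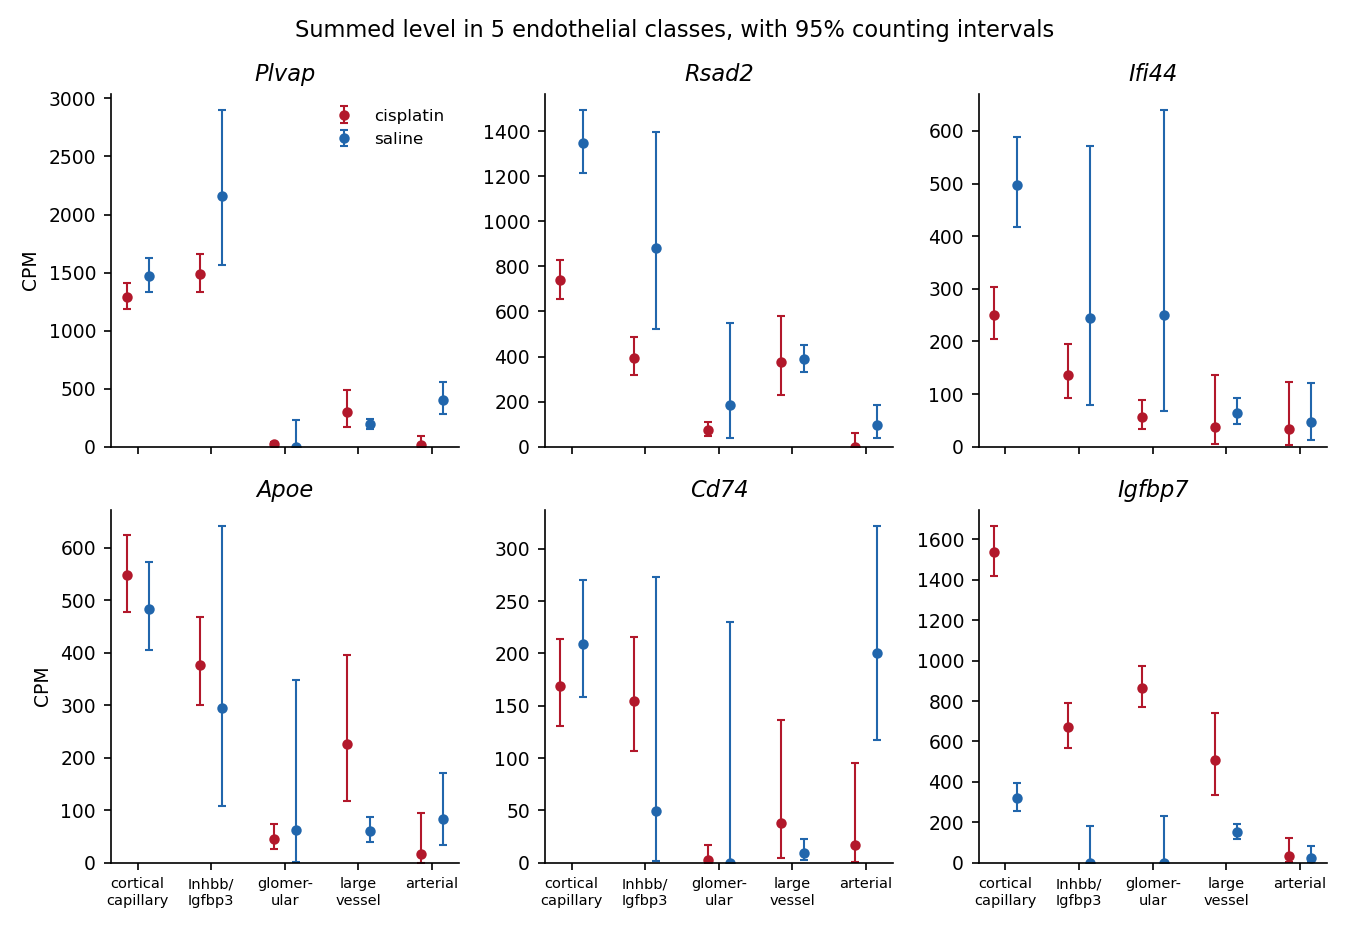
CPM of Plvap, Rsad2, Ifi44, Apoe, Cd74 and Igfbp7 in the 5 endothelial classes of the cisplatin library and of the saline library. Rsad2, Ifi44, Apoe, Cd74 and Igfbp7 have their highest point in the cortical capillary members of each library, with Cd74 of the arterial class close behind in the saline library, and Plvap is highest in the Inhbb and Igfbp3 capillary class of both libraries.

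Between treatments, 589 of 5418 genes with at least 20 UMIs over both libraries were at least 2-fold higher in the cisplatin members (10.9%) and 443 at least 2-fold lower (8.18%). The median log2 ratio over all 5418 genes was −0.07. Equal weight gave 743 higher and 892 lower with a median of −0.13. In members under 2000 UMIs 1854 genes were measured, of which 163 were higher (8.79%) and 533 lower (28.7%) with a median of −0.26, so the centre and the balance of all genes moved with the reading. List medians below are pooled log2 ratios, to be read against −0.07, and a list is described as set apart where its median lay at least 0.5 from that value.

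The p53 targets were set apart upwards. Of 18 measured targets, 8 were at least 2-fold higher in the cisplatin members and 0 lower, with a median log2 ratio of 0.80, beside 10.9% and 8.18% of all genes and a median of −0.07. Cdkn1a, the p21 inhibitor of the cell cycle on chromosome 17 (29090976 to 29100727, plus strand, GRCm38), had 249 UMIs in the cisplatin members and 47 in the saline members, or 617 and 172 CPM. Its ratio was 3.58 (2.62 to 5.01), 3.42 with equal weight and 2.94 (1.56 to 5.38) in members under 2000 UMIs. The other 4 classes had 646 CPM of Cdkn1a in the cisplatin library and 176 CPM in the saline library, so the members' levels were close to those of other endothelium in each library.

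Phlda3, an inhibitor of the kinase Akt, had 76 UMIs in the cisplatin members and 5 in the saline members, a ratio of 10.3 (4.22 to 32.6), and 17.5 with equal weight. Mdm2, the ligase that removes p53, had 41 UMIs in the cisplatin members and 10 in the saline members, a ratio of 2.77. Trp53inp1, a cofactor of p53 in stress, had 51 and 8 UMIs in the cisplatin and saline members, a ratio of 4.31. These targets thus had few UMIs each, and their order among themselves is not resolved by the counts. Ccng1, a cyclin that feeds back on p53, had 41 UMIs in the cisplatin members and 7 in the saline members, a ratio of 3.96. The remaining targets at least 2-fold higher were Zmat3, with 19 and 3 UMIs, the repair nuclease Ercc5, with 17 and 4, and the stress cytokine Gdf15, with 37 and 0, in each pair the cisplatin members first. Gdf15 was at least 8.34-fold higher against a floor of 3 UMIs in the saline members, and 45.9% of its UMIs came from 1 barcode. The pore-forming Bax had 118 UMIs in the cisplatin members and 41 in the saline members, a ratio of 1.95, just short of 2-fold. The death receptor gene Fas had a ratio of 1.54, and Sesn1 and Plk2 stood at 0.637 and 0.634, so not all targets pointed upwards.

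Metallothionein and oxidative defence genes were also set apart upwards, with 5 of 15 measured genes at least 2-fold higher, 0 lower and a median log2 ratio of 0.59. Besides Mt1 and Mt2 these were Fth1, the heavy chain of the iron store ferritin, Gclm, a subunit of the enzyme that starts glutathione synthesis, and Sod2, the mitochondrial superoxide dismutase. Fth1 had 951 UMIs in the cisplatin members and 287 in the saline members, a ratio of 2.24 (1.96 to 2.57), and 2.73 in members under 2000 UMIs. Fth1 has processed pseudogenes, so its count is uncertain. Gclm had 51 UMIs in the cisplatin members and 16 in the saline members, a ratio of 2.16, and Sod2 had 52 and 14, a ratio of 2.51. The ferritin light chain Ftl1 reached 1.41 and thioredoxin Txn1 0.690, neither past 2-fold.

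Glycolysis enzymes were higher as a group: 7 of 13 measured genes were at least 2-fold higher in the cisplatin members and 0 lower, with a median log2 ratio of 0.93. With members thinned to 500 UMIs 3 of the 13 genes were still measured and their median was −0.094 less the all-gene median, while Gapdh had a ratio of 3.53. Gapdh, which oxidises glyceraldehyde phosphate and has many pseudogenes, had 246 UMIs in the cisplatin members and 66 in the saline members, a ratio of 2.52 (1.91 to 3.36). Gpi1, which turns glucose phosphate into fructose phosphate, had 73 UMIs in the cisplatin members and 19 in the saline members, a ratio of 2.60, and Pgk1, which forms ATP, had 52 and 9, a ratio of 3.91. Hk1, Pfkl, Pfkfb3 and Tpi1 had ratios of 2.03, 2.03, 2.32 and 2.44. The enzymes of the upper and the lower pathway were both among them. Gapdh was also higher in the other 4 classes, at 668 CPM in the cisplatin library and 271 CPM in the saline library. Their class mix differed between the libraries, and proximal tubule markers had 1260 UMIs in the cisplatin members and 467 in the saline members. The part of either was not tested. Of 34 genes of the respiratory chain and ATP synthase, Atp5a1, Atp5b, Atp5o and Cox7b were at least 2-fold higher and 0 lower, with a median log2 ratio of 0.34. These 4 genes are a share close to the 10.9% of all genes.

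Chaperones of the heat shock response were set apart downwards. Of 12 measured genes, 6 were at least 2-fold lower in the cisplatin members and 0 higher, with a median log2 ratio of −1.03. Hsp90aa1, the inducible form of the chaperone Hsp90, had 82 UMIs in the cisplatin members and 177 in the saline members, a ratio of 0.313 (0.238 to 0.410). The small chaperone Hspb1 had 131 UMIs in the cisplatin members and 270 in the saline members, a ratio of 0.328 (0.264 to 0.406), and 0.240 in members under 2000 UMIs. Dnaja1, a partner of Hsp70, had 105 UMIs in the cisplatin members and 225 in the saline members, a ratio of 0.316 (0.248 to 0.400). Dnajb1, Chordc1 and Hspa1a made up the 6, and 62.2% of the Hspa1a UMIs of the cisplatin members came from 1 barcode. Hspa1a and Hspa1b are near-identical copies whose reads can be split, and Hspa1b stood at 0.548. The constitutive chaperones Hspa8 and Hsp90ab1 had ratios of 0.703 and 0.559, within 2-fold. The other 4 classes held Hspb1 at 343 CPM in the cisplatin library and 976 CPM in the saline library.

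**Figure D4:**
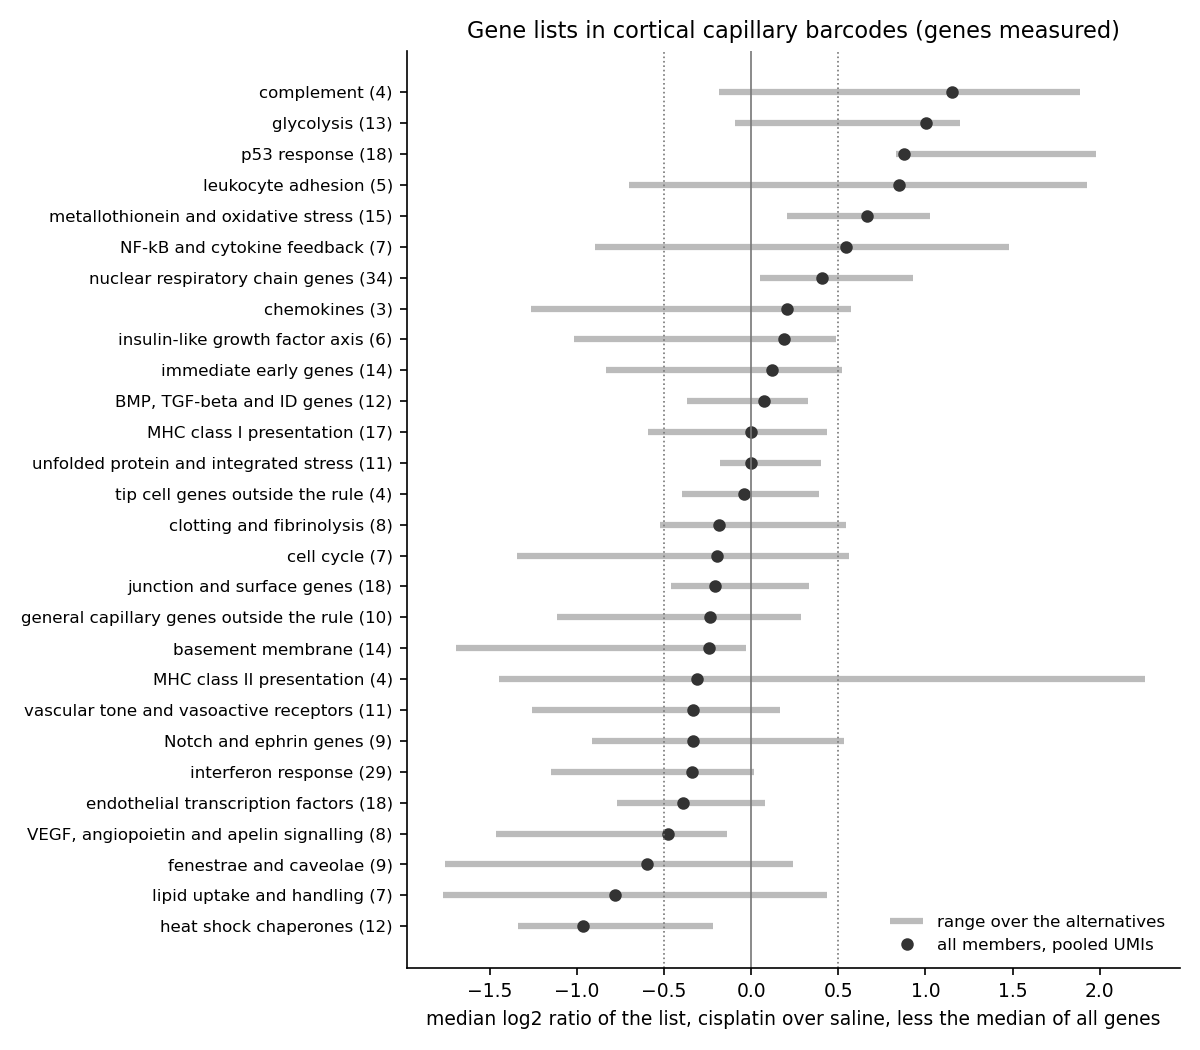
Median log2 ratio of cisplatin members over saline members for 28 gene lists, less the all-gene median, with points for the pooled CPM and lines for the range over the alternatives. The p53 targets lie above 0 throughout and heat shock genes below 0 throughout, over the genes still measured in each alternative. NF-kB targets and leukocyte adhesion genes cross 0 where 1 or 2 of their genes were still measured.

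Genes of capillary identity outside the rule were mostly within 2-fold. Of 10 measured general capillary genes, 0 were at least 2-fold higher and 2 lower, with a median log2 ratio of −0.31. Plvap had 521 UMIs in the cisplatin members and 402 in the saline members, a ratio of 0.877, 0.688 with equal weight and 0.476 in members under 2000 UMIs. Gpihbp1, the anchor of lipoprotein lipase, had 182 and 141 UMIs in the cisplatin and saline members, a ratio of 0.873, and the sialomucin Emcn had 486 and 296, a ratio of 1.11. Their pooled levels were thus close in both libraries. Igfbp5, which binds insulin-like growth factors, had 581 UMIs in the cisplatin members and 958 in the saline members, or 1439 and 3507 CPM, a ratio of 0.410 (0.370 to 0.455) and 0.286 with equal weight. Tcf15, a transcription factor that drives lipid uptake in heart and muscle capillaries of mice, had 10 UMIs in the cisplatin members and 40 in the saline members, a ratio of 0.169. In members under 2000 UMIs Tcf15 had 3 and 29 UMIs in the cisplatin and saline members, a ratio of 0.558 (0.109 to 1.80). Genes of fenestrae and caveolae had 0 of 9 past 2-fold in either direction and a median log2 ratio of −0.67, which stood at 0.084 less the all-gene median over the 8 genes still measured with members thinned to 500 UMIs. The caveolar coat genes Cav1, Cavin1 and Cavin2 had ratios of 0.612, 0.509 and 0.628.

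Fatty acid handling was lower by its median, −0.85 over 7 measured genes, of which 1 was at least 2-fold higher and 3 lower. Where the rule itself was applied to thinned barcodes, 3 of the 7 were still measured, with a median of 0.43 less the all-gene median. Fabp5, a fatty acid carrier and no part of the rule, had 49 UMIs in the cisplatin members and 155 in the saline members, or 121 and 568 CPM, a ratio of 0.214 (0.152 to 0.297) and 0.206 with equal weight. In the other 4 classes pooled, Fabp5 had 61.9 CPM in the cisplatin library and 8.71 CPM in the saline library. That direction was opposite to the members', but the class mix of the pool differed between the libraries, and its part was not tested. Cd36, a fatty acid receptor, had 40 UMIs in the cisplatin members and 49 in the saline members, a ratio of 0.552. Lpl, lipoprotein lipase, was the exception with 93 UMIs in the cisplatin members and 8 in the saline members, a ratio of 7.87. Free RNA would give 80.9% of its UMIs in the saline members. With free RNA subtracted and 0.5 UMI added per library the ratio was 30.2, which rests on what is left of 8 saline UMIs. In members under 2000 UMIs Lpl had 3 and 5 UMIs in the cisplatin and saline members, a ratio of 3.23 (0.502 to 16.6).

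Receptors for vascular growth factors were mostly below 1. Of 8 measured genes of vascular endothelial growth factor, angiopoietin and apelin signalling, 1 was at least 2-fold higher and 2 lower, with a median log2 ratio of −0.55. Kdr, the main receptor, had 328 UMIs in the cisplatin members and 327 in the saline members, a ratio of 0.679, 0.456 with equal weight and 0.331 in members under 2000 UMIs. Nrp1, its co-receptor, had 183 and 258 UMIs in the cisplatin and saline members, a ratio of 0.480 (0.395 to 0.582). Kdr was therefore within 2-fold when pooled and past it in both other readings. Ptprb, a phosphatase that dampens the angiopoietin receptor Tek, had 275 UMIs in the cisplatin members and 582 in the saline members, or 681 and 2131 CPM, a ratio of 0.320 (0.276 to 0.370) and 0.324 with equal weight. The other 4 classes had Ptprb at 1115 CPM in the cisplatin library and 2209 CPM in the saline library. Tek and Tie1 had ratios of 0.688 and 0.562. Vegfa, the ligand, had 46 UMIs in the cisplatin members and 13 in the saline members, a ratio of 2.39, and 1.53 without the barcode that gave 39.1% of them.

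Endothelial transcription factors were mostly lower or within 2-fold, with 1 of 18 measured genes at least 2-fold higher, 5 lower and a median log2 ratio of −0.46. Klf4, a factor induced by shear flow, had 74 UMIs in the cisplatin members and 134 in the saline members, a ratio of 0.374. Fli1, an ETS factor of endothelial identity, had 48 and 81 UMIs in the cisplatin and saline members, a ratio of 0.401, and Mecom, a zinc finger factor, had 49 and 85, a ratio of 0.390. Hhex and Bcl6b had ratios of 0.463 and 0.177. Mef2c, which acts with Klf factors in endothelium, had 78 UMIs in the cisplatin members and 187 in the saline members, a ratio of 0.282 (0.214 to 0.369). Nr2f2, a factor of venous identity, was the one higher, with 57 and 11 UMIs in the cisplatin and saline members, a ratio of 3.51, while free RNA would give 27.7% of its UMIs in the saline members. The Notch effector Rbpj, with a ratio of 0.486, was the single gene past 2-fold among 9 Notch and ephrin genes, whose median was −0.41. Likewise the guidance receptor Unc5b, at 0.362, was the single one among 4 tip cell genes with a median of −0.11, and the junction protein Afdn, at 0.406, among 18 junction and surface genes with a median of −0.28.

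Secreted and matrix genes split in both directions. Plat, the tissue plasminogen activator that starts the breakdown of clots, had 310 UMIs in the cisplatin members and 19 in the saline members, or 768 and 69.6 CPM. Its ratio was 11.04 (6.95 to 18.6), 8.91 with equal weight and 8.43 without the richest barcode. In members under 2000 UMIs Plat had 11 and 12 UMIs in the cisplatin and saline members, a ratio of 4.94 (1.98 to 12.2). The other 4 classes had Plat at 3336 CPM in the cisplatin library and 113.5 CPM in the saline library, above the members in each. Plaur, the receptor of the related urokinase, had 29 UMIs in the cisplatin members and 3 in the saline members, a ratio of 6.54 (2.03 to 33.6), whereas the clotting factor F8 stood at 0.445. Igfbp7, a secreted protein of vessel walls, had 621 UMIs in the cisplatin members and 87 in the saline members, a ratio of 4.83 (3.85 to 6.12), but 1.83 with equal weight and 0.801 in members under 2000 UMIs, with 29.6% of the UMIs from 1 barcode. Ltc4s, which makes leukotriene C4, had 50 UMIs in the cisplatin members and 1 in the saline members, a ratio of 33.8 (5.80 to 1363), and the other 4 classes had it at 244 CPM in the cisplatin library and 22.7 CPM in the saline library.

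Lower in the cisplatin members were the matrix gene Ltbp4, which holds latent TGF-beta, with 25 UMIs against 176 in the saline members, a ratio of 0.0961 (0.0605 to 0.147), and the basement membrane collagen Col15a1, with 11 UMIs against 46, a ratio of 0.162. Sparcl1, a secreted matrix glycoprotein, had 77 UMIs in the cisplatin members and 150 in the saline members, a ratio of 0.347, while Col18a1, the collagen that releases endostatin, went the other way with 33 and 9, a ratio of 2.48. Stmn2, a tubulin-binding protein best known from neurons, had 5 UMIs in the cisplatin members and 72 in the saline members, a ratio of 0.0470, and the growth factor Igf1 had 6 and 36, a ratio of 0.113. The tetramerisation domain gene Kctd12b, the phosphatase Ptprr, the phospholipase Plcb1 and the LIM protein Crip1 had ratios of 0.215, 0.159, 0.223 and 0.329.

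Several of the highest ratios rested on 1 barcode. Gstm2, a glutathione transferase, had 150 UMIs in the cisplatin members and 3 in the saline members, a ratio of 33.8 (11.4 to 166). A single barcode gave 82.0% of the cisplatin UMIs, and without it the ratio was 6.87. Cryab, a small chaperone, had 220 UMIs in the cisplatin members and 10 in the saline members, and a ratio of 3.97 without the barcode that gave 76.4% of the cisplatin UMIs. The epithelial gene Fxyd3 had 39 UMIs in the cisplatin members, every one from 1 barcode, and 0 in the saline members. The epithelial genes Spint2 and Krt18 had 65.9% and 48.8% of their cisplatin UMIs from 1 barcode, and Cystm1 had 38.2%. These genes stand beside the 779 collecting duct marker UMIs of 1 cisplatin member, whose part in them was not tested.

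Inflammatory lists depended on few genes and few barcodes. Of 7 measured NF-kB and interleukin 6 response genes, 3 were at least 2-fold higher and 0 lower, with a median log2 ratio of 0.47. Cebpb, a factor of the acute phase response, had 36 UMIs in the cisplatin members and 3 in the saline members, a ratio of 8.12 (2.57 to 41.2). Cebpd had 40 and 6 UMIs in the cisplatin and saline members, a ratio of 4.51, and the cytokine inhibitor Socs3 had 19 and 2, a ratio of 6.43 (1.55 to 56.9). In members under 2000 UMIs 2 of the 7 genes still had 20 UMIs, so the list could not be followed there. Cebpb had 6 and 3 UMIs in these cisplatin and saline members, a ratio of 10.8 (2.30 to 66.6). Socs3 had 4 and 2, a ratio of 10.8 (1.55 to 119), while Cebpd had 0 and 2, a ratio of 0 (0 to 28.7). Of 5 measured leukocyte adhesion genes, 2 were at least 2-fold higher and 0 lower, with a median of 0.78: Vcam1, which holds leukocytes through integrins, had 36 UMIs in the cisplatin members and 6 in the saline members, a ratio of 4.06, and Alcam had 31 and 1, a ratio of 21.0 (3.50 to 855). With equal weight and 0.5 UMI added per library the Alcam ratio was 2.14. In members under 2000 UMIs 1 of the 5 genes was still measured, and Vcam1 had 0 and 4 UMIs and Alcam 0 and 1 in the cisplatin and saline members. A single barcode gave 44.4% of the Vcam1 UMIs of the cisplatin members, and the adhesion receptor Icam1 had a ratio of 1.78. Of 4 measured complement genes, 2 were at least 2-fold higher and 0 lower, among them the alternative pathway factor Cfb, with 22 and 4 UMIs in the cisplatin and saline members, with a list median of 1.08. Without members of 2 or more podocyte UMIs, 2 of the 4 were still measured, with a median of −0.18 less the all-gene median. Among 3 measured chemokine genes, Cxcl12 had a ratio of 0.369 with 66.7% of its cisplatin UMIs from 1 barcode, and the decoy receptor Ackr3, with 21 and 0 UMIs in the cisplatin and saline members, was at least 4.74-fold higher against the floor of 3 UMIs, with 57.1% of its UMIs from 1 barcode. The 3 genes had a median of 0.13.

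The interferon-induced list had a higher median in the members than in the other 4 classes pooled. Between treatments, its genes were mostly within 2-fold with pooled UMIs. Of 29 measured genes, 1 was at least 2-fold higher and 3 lower, with a median log2 ratio of −0.41. With equal weight 0 were higher and 10 lower, with a median of −0.57. Over all genes, equal weight gave 13.7% higher and 16.5% lower, with a median of −0.13. Rsad2 had 298 UMIs in the cisplatin members and 368 in the saline members, a ratio of 0.548 (0.469 to 0.640), 0.431 with equal weight and 0.287 in members under 2000 UMIs. Ifi44 had 101 and 136 UMIs in the cisplatin and saline members, a ratio of 0.502, and 1 and 117 in members under 2000 UMIs, a ratio of 0.0461 (0.00116 to 0.262). The 3 lower genes were the ADP-ribosyl transferase Parp14, with 45 and 90 UMIs and a ratio of 0.338, Irf9, a part of the interferon-activated transcription complex, at 0.425, and Ifit2 at 0.492. Ifit3, an inhibitor of viral RNA translation, was the gene higher, with 76 UMIs in the cisplatin members and 25 in the saline members, a ratio of 2.06, but 0.568 in members under 2000 UMIs. Among 17 measured class I genes 1 was at least 2-fold higher and 0 lower, with a median of −0.07, and H2-K1, H2-D1 and B2m had ratios of 0.981, 1.13 and 0.812. H2-Q7, which shares sequence with other class I genes, had 232 and 64 UMIs in the cisplatin and saline members, a ratio of 2.45, and 0.942 without the barcode that gave 63.4% of them. Of 4 class II genes 0 were past 2-fold, with a median of −0.38, and Cd74 had a ratio of 0.807, and 0.409 without its richest barcode.

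**Figure D5:**
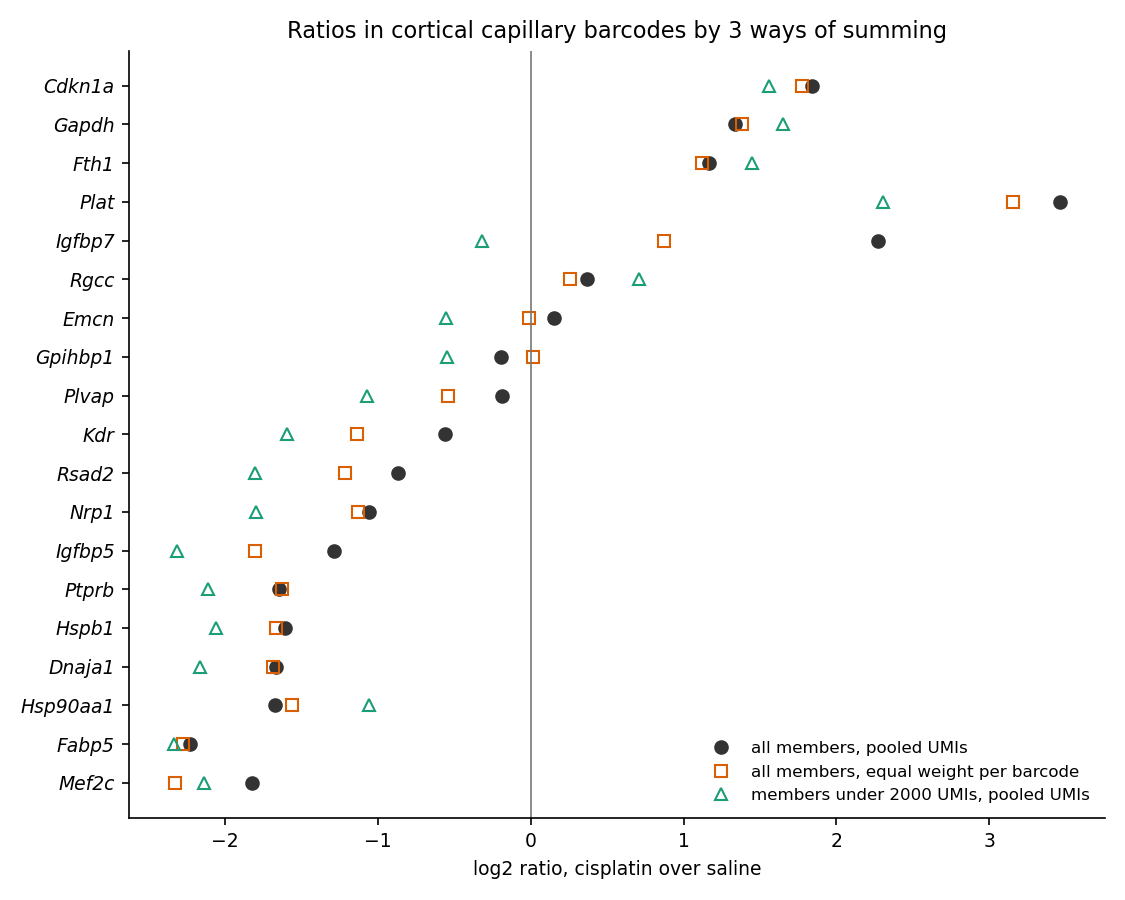
Log2 ratio of cisplatin members over saline members for 19 genes in 3 readings, pooled UMIs, equal weight of barcodes and members under 2000 UMIs. Cdkn1a, Gapdh, Fth1, Fabp5, Hspb1 and Ptprb keep their direction in the 3 readings, while Igfbp7 is above 0 when pooled and below 0 in members under 2000 UMIs.

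The remaining lists held few genes past 2-fold. Of 14 immediate early genes, Junb, a part of the AP-1 complex, had 48 UMIs in the cisplatin members and 12 in the saline members, a ratio of 2.71, and Egr1 stood at 0.496, with a list median of 0.05. Of 11 genes of the unfolded protein response and 12 of BMP signalling, 0 were past 2-fold, with medians of −0.07 and 0.00. The 11 genes of vascular tone also had 0 past 2-fold and a median of −0.40. Of 7 measured cell cycle genes, with a median of −0.27, 1 was at least 2-fold lower and 1 higher: Ccnd2, a cyclin of the early cycle, had 87 UMIs in the cisplatin members and 134 in the saline members, a ratio of 0.439, and the inhibitor Cdkn1c stood at 2.45 with 57.4% of its cisplatin UMIs from 1 barcode. The list of insulin-like growth factor signalling went both ways, with Igfbp4 and Igfbp7 at least 2-fold higher and Igfbp5 and Igf1 at least 2-fold lower among 6 measured genes, and a median of 0.12. Of 14 basement membrane genes, 1 was at least 2-fold higher and 2 lower, with a median of −0.31, and of 8 clotting and fibrinolysis genes 2 were higher and 1 lower, with a median of −0.26.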

How the data were processed

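Each library was deposited by the authors as an unfiltered matrix of raw counts, in UMIs per gene and barcode, made with Cell Ranger 6.0.1 on mm10 per the submitters' processing notes, while the file headers give software version 4. Barcodes were filtered and assigned as in the opening, and doublets were sought with Scrublet in scanpy 1.11.5 but not removed. UMIs were summed over the members of each library. The ratio of CPM has an exact conditional binomial interval, UMIs have exact Poisson and shares exact Clopper-Pearson intervals, each at 95% and for counting error only (scipy 1.17.1). Log2 ratios used 0.5 UMI added per library. Genes with at least 20 UMIs over both libraries were measured and called past the fold at a ratio of 2 or more or 0.5 or less. Free RNA was taken from barcodes of 1 to 100 UMIs. Its amount in the members was set by counting all their proximal tubule marker UMIs as free RNA. This gave 13.6% of the UMIs of the cisplatin members and 5.13% of those of the saline members. No test was run, since each treatment has 1 library. The ratio, its interval and the 2-fold call were tested on simulated counts with known ratios. Those counts were drawn per gene and not per barcode, and the other steps were not tested this way. Genes named in the text were the 12 highest and 12 lowest by the interval bound nearest 1, the 12 highest over other classes, the genes of the rule, and from each list up to 4 farthest from 1 and the most abundant ones. Further list members, such as Bax, Gclm and Kdr, were named with their values known. Sequences and annotation came from RefSeq GRCm38.p6, gene positions from GENCODE M21. The members, gene lists and alternatives were chosen with earlier results of these data known. Results for some genes are not reported here.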

Additional observations from a re-analysis of the deposited data

How the results depend on the processing

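No paired analysis was possible because each treatment has 1 library. The values below come from 21 alternatives chosen with the design and 6 added after seeing the data (members under 2000 UMIs, members of at least 2 markers, members without an excess of non-endothelial markers, without the collecting duct barcode, and both other denominators), and for each change the cause was not tested. The share of members in the cisplatin library was 19.3% at 1000 or more UMIs, 16.0% at 10% or less mitochondrial, 8.72% at a marker sum of 3 or more, 2.80% with the other 4 sums at 0, 8.18% with the rule thinned to 500 UMIs, 2.14% without Fabp4 in the rule, 24.0% with at least 2 endothelial UMIs and 50% among barcodes with a class. The saline share was 31.2% at 1000 or more UMIs, 16.5% with the other sums at 0, 13.7% without Fabp4 and 59.3% among barcodes with a class. Genes at least 2-fold higher numbered 60 of 778 measured with the other sums at 0, 61 of 838 with the rule thinned, 242 of 1467 without Fabp4, 82 of 1201 with members thinned, 320 of 3686 without members of 2 or more podocyte UMIs, 307 of 4086 without an excess of non-endothelial markers, 163 of 1854 under 2000 UMIs, and 1279 of 7930 and 183 of 2470 at minima of 10 and 50 UMIs per gene. Over the same genes, those at least 2-fold lower numbered 316 (40.6%) with the other sums at 0, 226 (27.0%) with the rule thinned, 271 (18.5%) without Fabp4, 248 (20.6%) with members thinned, 522 (14.2%) without podocyte members, 533 (28.7%) under 2000 UMIs, and 731 (9.22%) and 179 (7.25%) at the minima of 10 and 50, and with equal weight 892 of 5418 (16.5%), beside 8.18% as reported. The higher share of genes past the fold was 57.1% as reported. It was 16.0% with the other sums at 0, 21.3% with the rule thinned, 47.2% without Fabp4, 24.8% with members thinned, 38.0% without podocyte members, 45.4% with equal weight, 23.4% under 2000 UMIs and 61.7% when divided by the median ratio. Among lists set apart and genes past 2-fold as reported, the following turned in sign (list medians are less the all-gene median, genes are log2 ratios), several over few genes still measured. NF-kB genes, 2 measured in each case, were at −0.89 with the other sums at 0, −0.22 without Fabp4, −0.079 with members thinned, −0.24 at 50 UMIs per gene and −0.46 under 2000 UMIs. Leukocyte adhesion, with 1 gene measured in each case, was at −0.70 without Fabp4, −0.11 with members thinned, −0.069 at 50 UMIs per gene and −0.35 under 2000 UMIs. Fenestrae and caveolae were at 0.24 with the rule thinned and 0.084 with members thinned, 3 lipid genes at 0.43 with the rule thinned, 3 glycolysis genes at −0.094 with members thinned and 2 complement genes at −0.18 without podocyte members. H2-Q7 was at −2.72 with the other sums at 0, −0.51 with the rule thinned, −0.077 without Npr3 in the rule, −0.079 without podocyte members and −0.68 under 2000 UMIs. Igfbp7 was at −1.19 with the other sums at 0 and −0.26 under 2000 UMIs, Ifit3 at −0.53 under 2000 UMIs, and Cxcl12 at 0.29 among members of at least 2 markers. Lists and genes nearer 0 as reported also changed sign: the insulin-like growth factor list was at −1.02 under 2000 UMIs, class II at 2.26 with the other sums at 0, immediate early genes at −0.83 with the rule thinned and cell cycle genes at 0.56 without Fabp4, and for single genes Cd36 was at 0.90 with the rule thinned, Cd74 at 1.17 and H2-Aa at 1.53 with the other sums at 0, and Apoe at −0.86 with members thinned. The p53 list stayed at least 0.5 above the all-gene median in 25 of the 25 alternatives that bear on levels (0.83 to 1.98). Those medians cover only the targets still measured in each alternative. Cdkn1a was measured in 24 of the 25, Bax in 23, and Phlda3, Mdm2 and Trp53inp1 in 20. Ccng1 was measured in 19, Gdf15 in 16 and Zmat3 in 14. Heat shock genes stayed at least 0.5 below the all-gene median in 23 (−1.34 to −0.22). Glycolysis genes were at least 0.5 above it in 24 (−0.094 to 1.20), and metallothionein and oxidative genes in 22 (0.20 to 1.02). Removing Scrublet calls took out 0 members, and dividing by the median ratio shifts a list and all genes alike. Neither of these alternatives could move the list values. Depth limits genes of few UMIs, and the 32120 UMIs of the shallow cisplatin members limit the comparison at matched depth.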
